A study of Drosophila melanogaster with 18 samples.

Results

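Transcript levels after knockdown of the insulator protein BEAF were compared directly with levels after knockdown of CP190, without passing through the control arrays. The comparison used the 2 arrays titled BEAF and the 2 titled CP190, 4 of the 18 arrays of the series, and every one of the 16637 transcripts on them. The arrays were chosen by their titles alone, and no transcript was selected by its values. A difference is the mean log2 signal of the BEAF arrays minus that of the CP190 arrays, so a negative value means that less signal was left when BEAF was depleted than when CP190 was.

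All samples were Kc cells, an embryo-derived cell line of Drosophila melanogaster, given double-stranded RNA on each of 3 days and collected on day 4. Control cells, called wild type in the labels, received double-stranded RNA against beta-galactosidase. The other groups carried a knockdown of BEAF, CP190, CTCF or SuHw alone, or of BEAF and CP190, BEAF and CTCF, CTCF and CP190, or SuHw and CP190 together, with 2 independent experiments in each of the 9 groups. Control, BEAF and CP190 arrays, called the first set here, have the cell line written differently in the labels from the other groups (the second set). What the wording marks is not stated, so differences below are taken within a set.

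Insulators are DNA elements that can keep an enhancer from acting on a promoter beyond them and that often lie at the borders of chromatin domains. BEAF binds DNA itself and is found near the promoters of many active genes in Drosophila. CP190 is recruited by several DNA-binding insulator proteins, BEAF, CTCF and SuHw among them, so a transcript may respond to loss of 1 of the pair, to both alike or to both in different ways.

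Of the 16637 identifiers, all FlyBase transcripts, 16 could be matched to 1 gene symbol, and 14 of these are named genes. The genes of the 4 targeted proteins were not among them, so the depth of each knockdown was not analysed here, and neither were markers of the cell line. Whether a transcript without a symbol, those given by identifier below included, comes from a targeted gene was not tested. Replicate arrays correlated at 0.999 across transcripts in both groups, and a BEAF array with a CP190 array at 0.9968 to 0.9977. Replicates differed with a root mean square SD of 0.11 in BEAF and 0.118 in CP190 on the log2 scale.

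Loss of BEAF and loss of CP190 left most transcripts at like levels, and the large differences ran mostly 1 way. At least 2-fold differences were called for 68 transcripts, 0.409% of all, of which 48 were lower and 20 higher in BEAF arrays. At any size 1800 transcripts were called (limma over all 18 arrays, Benjamini-Hochberg adjusted p under 0.05), 10.8% of those tested, with 953 higher and 847 lower in BEAF. Differences of all transcripts had quartiles of -0.07 and 0.14 and a median of 0.03. At any size the balance turned with quantile normalization, to 756 higher and 961 lower, whereas at 2-fold it gave 18 and 54.

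The median difference of the 48 lower transcripts was 2.42-fold and that of the 20 higher ones 2.34-fold. Lower transcripts reached 6.41-fold, and 5 exceeded 4-fold. Higher transcripts stopped at 3.97-fold. Standard errors of the 68 ran from 0.057 to 0.21 on the log2 scale, and the highest adjusted p among them was 0.0024. In 48 of the 68, 36 lower and 12 higher, both BEAF arrays lay at least 2-fold away from both CP190 arrays. Over all transcripts these same 48 (0.289%) were the ones with arrays so far apart. Fewer cells with a transcript and less of it per cell cannot be told apart in these bulk samples.

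**Figure D1:**
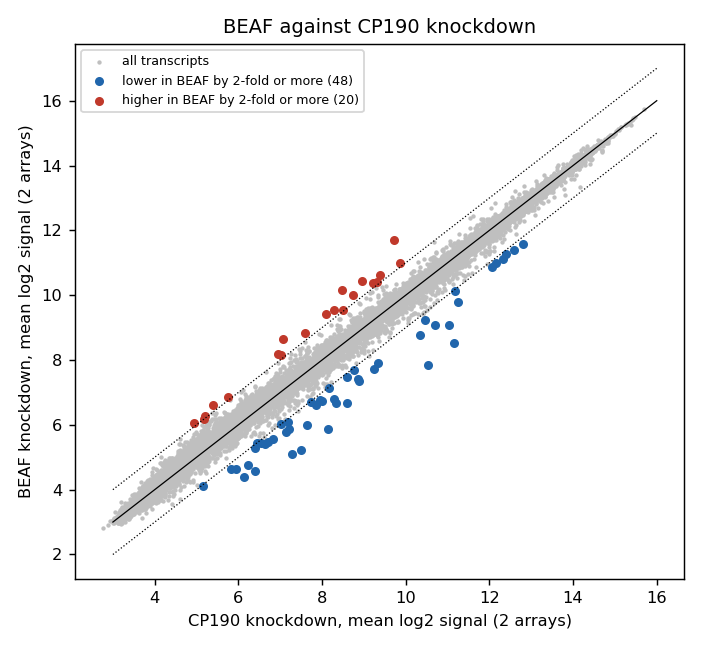
Mean log2 signal of each transcript in the 2 CP190 arrays (horizontal axis) and the 2 BEAF arrays (vertical axis); the solid line marks equal signal and the dotted lines a 2-fold difference. The 48 transcripts lower in BEAF (blue) outnumber the 20 higher (red), and few of either lie at the top of the signal range.

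Large differences were commonest among transcripts of modest signal. When transcripts were ranked by their mean over all 18 arrays, and cut into 4 equal classes, 46 of the 68 fell in the second class from the bottom, 16 in the third, 3 in the top and 3 in the lowest. The table gives no background measure, and in 15 of the 68 the group with less signal lay below the lower quartile of the 4 arrays (a log2 signal of 5.44), where a low signal cannot be told from background. Without these 15, a filter chosen after seeing the data, 37 transcripts were lower and 16 higher in BEAF.

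The transcript with the largest difference was FBtr0074827. Its log2 signal was 7.61 and 8.09 on the BEAF arrays and 10.40 and 10.65 on the CP190 arrays, a 6.41-fold lower signal in BEAF (SE 0.14 on the log2 scale, adjusted p = 1.7e-07). Control arrays read 10.03 and 10.04, between the groups but close to CP190. FBtr0087441 stood nearly as far apart, at 8.49 and 8.58 with BEAF depleted and 11.14 and 11.15 with CP190 depleted. That is 6.11-fold lower in BEAF (SE 0.057, adjusted p = 3.1e-11), and its control arrays at 10.92 and 10.91 again lay nearest to CP190.

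Among transcripts with more signal in BEAF arrays, FBtr0087442 led. It read 11.58 and 11.84 in BEAF and 9.80 and 9.63 in CP190, a 3.97-fold higher signal (SE 0.10, adjusted p = 1.7e-07). Control arrays, at 8.98 and 9.12, lay below both groups, so in the first set the transcript rose after either knockdown and by more after that of BEAF. FBtr0084270 had the second largest excess, on the other side. Its BEAF arrays, at 10.19 and 10.14, were level with control (10.09 and 10.12), while the CP190 arrays read 8.48 and 8.47, so that the 3.24-fold difference (SE 0.064, adjusted p = 1.4e-08) lay on the CP190 side. None of the 68 was among the 16 transcripts with a symbol, so whether any of them comes from a targeted gene is not known.

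**Figure D2:**
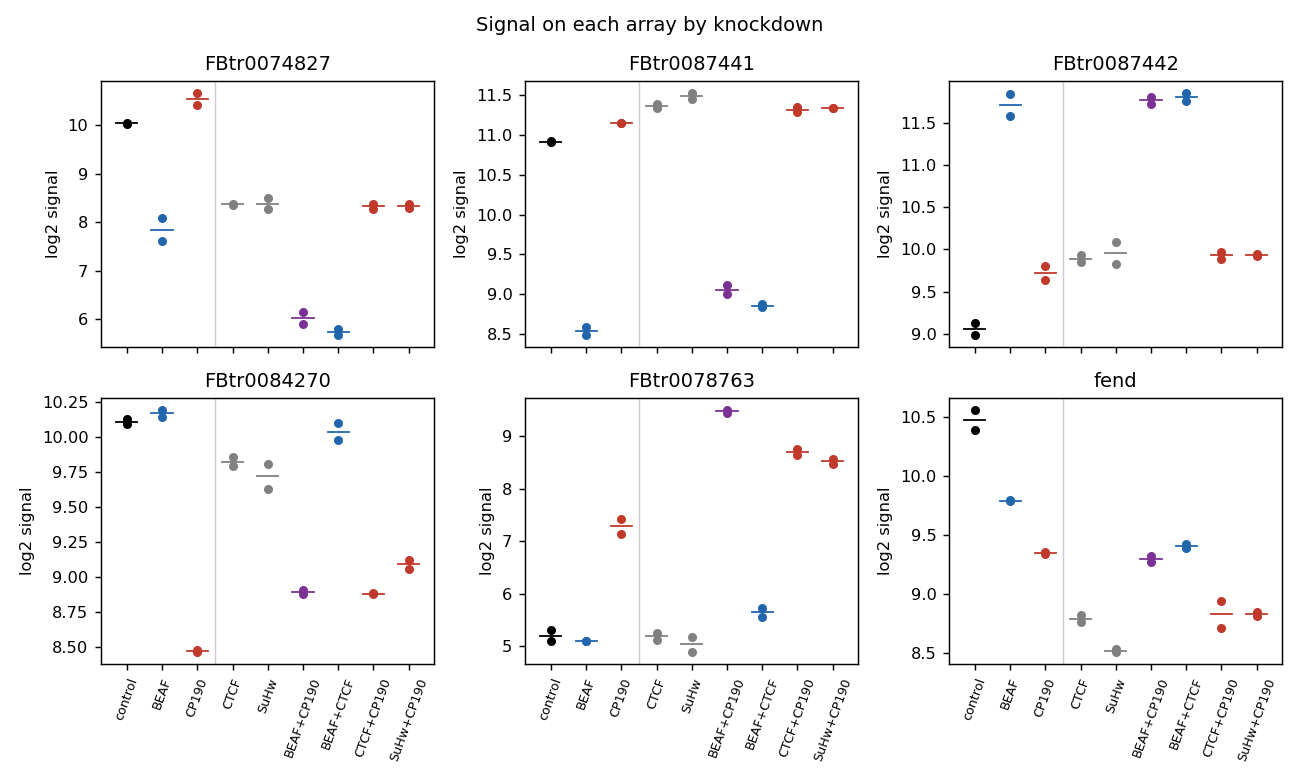
Log2 signal of 5 transcripts and the gene fend on each array (points) with the group mean (bar), by knockdown; the grey line divides the first set from the second, and colours mark BEAF without CP190 knockdown (blue), CP190 without BEAF knockdown (red) and both (purple). Within each set the arrays with BEAF depleted are the lowest for FBtr0074827 and FBtr0087441 and the highest for FBtr0087442, and those with CP190 depleted are the lowest for FBtr0084270 and the highest for FBtr0078763.

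Of the 14 named genes, fend and NaPi-III differed between the knockdowns. They are 2 of 16 matched transcripts, where 10.8% of all transcripts were called. The gene fend was higher in BEAF, at 9.79 on each array, than in CP190, at 9.36 and 9.34. The difference of 0.44 (SE 0.074, adjusted p = 0.002) is 1.36-fold. Both groups lay below control, at 10.56 and 10.39, with log2 differences of -0.68 in BEAF and -1.13 in CP190, so fend lost more signal when CP190 was depleted.

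NaPi-III, a gene of the phosphate transporter family, was lower in BEAF, at 12.62 and 12.73, than in CP190, at 12.88 on each array. The difference of -0.21 (SE 0.054, adjusted p = 0.029) was 1.15-fold. NaPi-III also lay below its control arrays, at 13.25 and 13.19, in each knockdown. Its call was lost without BEAF replicate 1, where the difference was -0.15 (adjusted p = 0.21), without either CP190 array (adjusted p of 0.11 and 0.083), and when the fit held only the 4 arrays (adjusted p = 0.21) or only the first set (adjusted p = 0.13), and with array weights (adjusted p = 0.059).

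The 4 chromatin genes with a symbol did not pass the test. The chromatin remodeller gene kis read 12.72 and 12.61 in BEAF and 12.52 and 12.49 in CP190. Its arrays did not overlap, which held for 52.4% of all transcripts, and the difference of 0.16 (SE 0.06) missed the threshold (adjusted p = 0.12). The histone deacetylase gene HDAC3 differed by -0.01 (SE 0.063), the histone H4 gene His4r by 0.06 (SE 0.077) and SuUR, which encodes a protein of late-replicating heterochromatin, by -0.08 (SE 0.07).

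The same held for genes of other functions. Of the GATOR2 complex, which acts upstream of the TOR kinase, mio differed by -0.14 (SE 0.06, adjusted p = 0.18) and Wdr24 by -0.15 (SE 0.07, adjusted p = 0.2). The Hedgehog pathway gene rdx, which encodes an adaptor of a ubiquitin ligase, had the second largest difference of the named genes at 0.25 (SE 0.11), with arrays of 12.24 and 12.37 in BEAF and 12.05 and 12.07 in CP190, yet did not pass (adjusted p = 0.17). The laminin gene LanA (0.08), the nucleolar protein gene sle (0.04), the spectrin gene alpha-Spec (0.03), Fatp1 (-0.02), which encodes a fatty acid transporter, and Uba1 (0.03), which encodes an enzyme that activates ubiquitin, differed by less. So did CG16974 (-0.11), while CG31178 was at 0.17 (SE 0.12). A missed threshold does not show that levels were equal.

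The control arrays of the first set show which knockdown carried a difference. This is a description, since each comparison with control reuses arrays that chose the transcripts, and BEAF and CP190 share the same 2 control arrays. Against control, 21.7% of all transcripts were called higher and 20% lower in BEAF, and 15.5% higher and 19.4% lower in CP190. Of the 68, 22 were called against control in BEAF only, 12 in CP190 only, 20 in both in opposite directions and 14 in both in the same direction. Shares of all transcripts in these classes were not counted.

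For the 48 transcripts lower in BEAF, the lower signal lay mostly on the BEAF side. In 21 the BEAF level was called below control and CP190 was not called, with a median of -1.28 in BEAF and 0.02 in CP190. In 14 BEAF lay below control (median -0.94) and CP190 above it (0.53), so the knockdowns moved the transcript apart. In 7 both lay below control, BEAF by more (-1.95 and -0.42). In the remaining 6 only CP190 was called, at a median of 1.02 above control.

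FBtr0075485 is an example of the 21. Its signal was 4.48 and 4.65 in BEAF, 6.46 and 6.33 in CP190 and 6.64 and 6.55 in control, so CP190 and control arrays lay close together and far above BEAF. The BEAF arrays lay below 5.44, where signal cannot be told from background. BEAF arrays of FBtr0088004, at 5.77 and 6.21, likewise lay below CP190 (7.65 and 7.63) and control (7.72 and 7.64). FBtr0078763 had the reverse form. Its BEAF arrays, both at 5.10, were at the level of control (5.30 and 5.10), and its CP190 arrays stood at 7.43 and 7.14, a log2 signal difference of -2.19 (SE 0.11, adjusted p = 1.7e-07). Since BEAF and control lay below 5.44, this is no measure of the fold in RNA. FBtr0091778 followed it, with BEAF at 4.68 and 4.57, control at 4.22 and 4.47 and CP190 at 5.83 and 5.80, and the same limit holds for it.

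The 20 transcripts higher in BEAF lay more often on the CP190 side. CP190 was called below control in 17 of them, 10 by at least 2-fold, whereas BEAF was called above control in 9, 3 by that much. In 6 only CP190 was called (median -1.43 in CP190 and 0.00 in BEAF), in 6 the knockdowns moved apart, in 7 both moved the same way and in 1, FBtr0113859, only BEAF was called. FBtr0080987 shows the first form, with CP190 arrays at 8.91 and 9.01, BEAF at 10.39 and 10.48 and control at 10.52 and 10.37. FBtr0085680 shows the second, with BEAF at 8.67 and 8.61 above control (7.44 and 7.49) and CP190 at 6.96 and 7.17 below it. For FBtr0113859, control (5.34 and 5.30) and CP190 arrays (4.90 and 4.97) lay below 5.44. In the second set its log2 change with CP190 knockdown was -0.71 when added to CTCF and -0.65 when added to SuHw, both called. That with BEAF knockdown added to CTCF, -0.27, was not called.

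**Figure D3:**
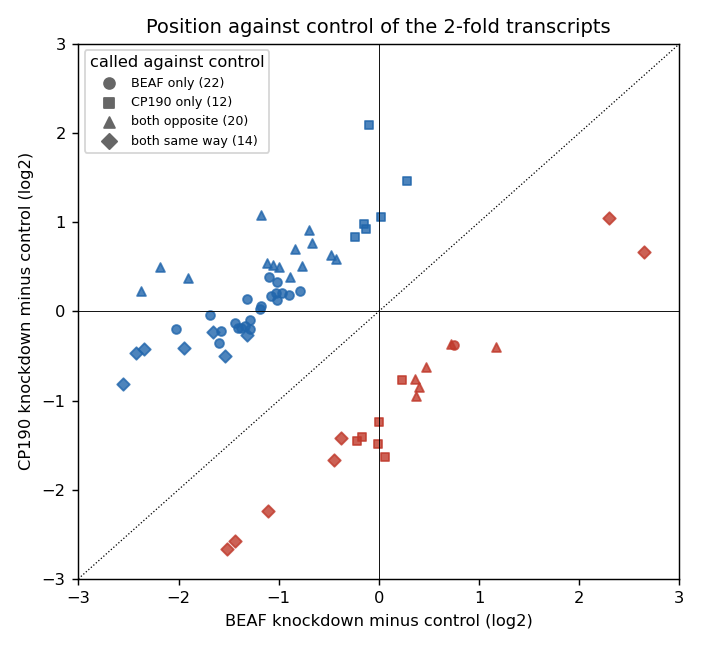
Log2 difference from control in BEAF (horizontal axis) and in CP190 (vertical axis) of the 68 transcripts that differed at least 2-fold between the knockdowns, lower (blue) or higher (red) in BEAF; marker shapes give the group called against control, and the dotted line marks equal change. Blue points gather to the left of 0 and red points below 0; both axes share the 2 control arrays.

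Over all 1800 called transcripts the same forms appeared at smaller size. BEAF alone was called against control for 659, CP190 alone for 414, both in the same direction for 485, both in opposite directions for 83 and neither for 159. Of the 847 lower in BEAF, 342 had only BEAF called and 142 only CP190. Of the 953 higher in BEAF the numbers were 317 and 272. Against control, 6943 of all transcripts were called in BEAF and 5816 in CP190. The share of all transcripts in each class was not counted, so these splits are a description only.

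The second set holds the same contrast on other arrays. BEAF+CTCF and CTCF+CP190 arrays both carry a CTCF knockdown and differ by whether BEAF or CP190 was depleted with it. Whether CTCF was depleted alike in both groups was not tested. They share no array with the BEAF and CP190 groups. Calls in both contrasts rest on a spread estimated from all arrays, so the calls are not independent. In BEAF+CTCF minus CTCF+CP190, 960 transcripts were higher (5.77%) and 1078 lower (6.48%), 12.2% in all, and 63 and 104 of them by at least 2-fold. Of the 68 transcripts, 60 (88.2%) were called in the same direction in these arrays, 8 were not called and none was called in the opposite direction. With CTCF depleted 45 of the 48 were lower and 15 of the 20 higher. All but 1 of the 68 had the same sign.

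Sizes were set side by side as well, without a correlation within either direction, so the order of size was not tested. Across the 68 transcripts the differences of the contrasts correlated at 0.884 (Pearson; Spearman 0.807), a description over transcripts chosen for large differences in either direction, which by itself makes a correlation high. Over all 16637 transcripts the correlation was 0.59 (Spearman 0.432). Of the 68, 43 (63.2%) also differed at least 2-fold with CTCF depleted, and these are 25.7% of the 167 transcripts that did so there.

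FBtr0074827 read 5.68 and 5.80 in BEAF+CTCF and 8.28 and 8.38 in CTCF+CP190, a 6.02-fold lower signal beside the 6.41-fold without CTCF knockdown. The arrays again did not overlap. FBtr0087441 was at 8.87 and 8.84 against 11.28 and 11.35, and FBtr0087442 at 11.85 and 11.75 against 9.89 and 9.97. For these 3 transcripts the difference between the contrasts was -0.09 (SE 0.19), -0.15 (SE 0.081) and 0.12 (SE 0.14), with adjusted p of 0.9, 0.46 and 0.79.

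**Figure D4:**
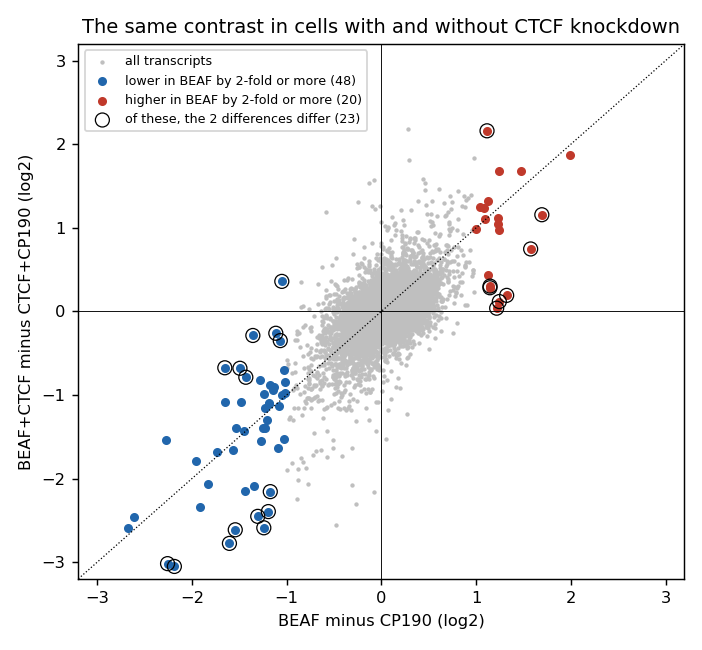
Log2 difference between BEAF and CP190 knockdown without (horizontal axis) and with (vertical axis) CTCF knockdown for every transcript (grey) and for the 48 lower (blue) and 20 higher (red) in BEAF by at least 2-fold; circles mark the 23 whose differences differed from each other, and the dotted line marks equality. All but 1 of the coloured points lie on the same side of 0 on each axis.

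Calls in the same direction were more common the larger the difference was, on the lower and on the higher side. Of transcripts 2-fold to 4-fold lower in BEAF, 40 of 43 (93%) were called lower with CTCF depleted, against 121 of 158 (76.6%) at 1.5-fold to 2-fold, 203 of 394 (51.5%) at 1.25-fold to 1.5-fold and 99 of 247 (40.1%) below that. On the higher side the shares were 15 of 20 (75%), 83 of 142 (58.5%), 175 of 502 (34.9%) and 83 of 289 (28.7%). Every share lay above the 6.48% and 5.77% of all transcripts called in those directions. Transcripts with a small spread are favoured in both calls, so this excess is not independent evidence. A larger difference also passes the threshold more readily, so the rise of the shares with size is a description and was not tested. Opposite calls numbered 14 of the 1800, beside 824 in the same direction.

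**Figure D5:**
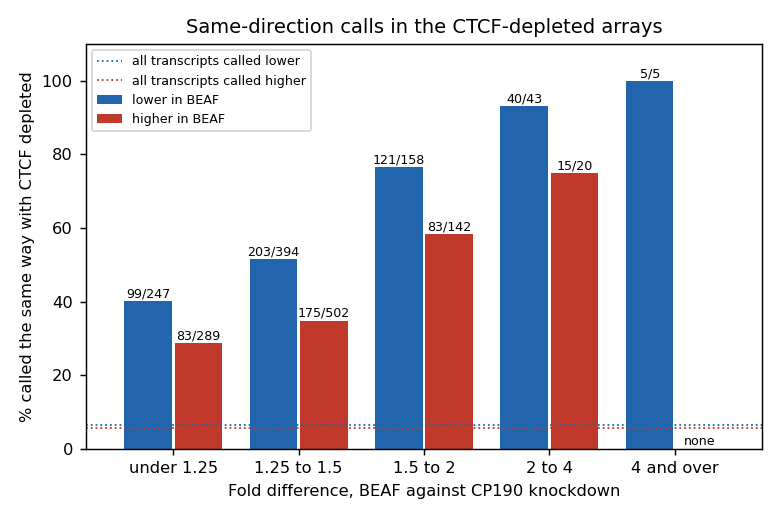
Percent of transcripts called in BEAF minus CP190 that were also called in the same direction in BEAF+CTCF minus CTCF+CP190, by fold difference in the first contrast and direction (bars, from 0, with counts above them); dotted lines give the share of all transcripts called lower or higher. Shares rise from 40.1% to 93% on the lower side and from 28.7% to 75% on the higher side, and all 5 transcripts lower by 4-fold or more were called.

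The gene fend kept its difference with CTCF depleted, at 9.42 and 9.39 in BEAF+CTCF and 8.71 and 8.94 in CTCF+CP190 (0.58, SE 0.074, adjusted p = 0.00015). The CTCF arrays lay at 8.76 and 8.82, level with CTCF+CP190, so that here fend was higher when BEAF was depleted with CTCF. In the first set both single knockdowns lay below control. Adding CP190 knockdown to SuHw knockdown raised fend, from 8.53 and 8.51 to 8.84 and 8.81 (0.31, SE 0.074, adjusted p = 0.0077). NaPi-III did not differ detectably, at 13.14 on each BEAF+CTCF array and 13.10 and 13.20 in CTCF+CP190 (-0.01, SE 0.054). The difference between its contrasts, -0.20 (SE 0.077), did not pass either (adjusted p = 0.25). None of the other 14 matched transcripts was called with CTCF depleted, the nearest being Fatp1 at -0.16 (SE 0.069, adjusted p = 0.19).

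Second-set arrays with and without each knockdown give an account of the sides in which the differences used no first-set array. The calls did use them, since the spread of each transcript came from the fit of all arrays. A transcript with a small spread is called more readily in both sets, so the calls are not independent. Adding BEAF knockdown to CTCF knockdown called 11.9% of all transcripts higher and 10% lower, and adding CP190 knockdown called 12.6% higher and 11.8% lower, both against the same CTCF arrays. Adding CP190 knockdown to SuHw knockdown called 14.6% higher and 13.7% lower. Of the 48 transcripts lower in BEAF, 27 were lower and 5 higher when BEAF was added to CTCF (median -0.77). With CP190 added, 27 were higher and 1 lower on CTCF (0.48), and 27 higher and 2 lower on SuHw (0.46). The median over all transcripts was 0.00, -0.01 and 0.01 in these comparisons. Of the 20 higher in BEAF, 8 were higher and none lower when BEAF was added to CTCF. With CP190 added, 14 were lower and 3 higher on CTCF, and 10 lower and 2 higher on SuHw.

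For the 21 transcripts placed on the BEAF side alone in the first set, 15 fell and 1 rose when BEAF was added to CTCF. CP190 depletion moved them there too, and 11 of the 21 rose when CP190 was added to CTCF, and 12 of the 21 rose and 1 fell when it was added to SuHw. FBtr0075485 shows this. It went from 5.74 and 5.68 in CTCF to 4.60 and 4.56 in BEAF+CTCF and to 6.50 and 6.80 in CTCF+CP190, and from 6.13 and 6.34 in SuHw to 6.98 and 7.06 in SuHw+CP190. The BEAF+CTCF arrays lay below 5.44. FBtr0088004 did not fall when BEAF was added to CTCF (0.35, SE 0.13, adjusted p = 0.073), and rose when CP190 was added to CTCF (1.43, SE 0.13) and to SuHw (1.70, SE 0.13).

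Transcripts placed on the CP190 side in the first set also moved with CP190 in the second. Of the 6 lower in BEAF for which only CP190 was called against control, 5 rose and 1 fell when CP190 was added to CTCF. On adding it to SuHw, 4 rose, 1 fell and 1 was not called. When BEAF was added to CTCF, 2 rose, none fell and 4 were not called. FBtr0078763 rose from 5.26 and 5.12 in CTCF to 8.64 and 8.76 in CTCF+CP190, a log2 signal difference of 3.51 (SE 0.11, adjusted p = 1.9e-09), and from 4.90 and 5.18 in SuHw to 8.57 and 8.47 in SuHw+CP190, a difference of 3.48. The starting levels again lay below 5.44. It also rose when BEAF was added to CTCF, by 0.46 (adjusted p = 0.011). With both BEAF and CP190 depleted it read 9.44 and 9.50, the highest of all groups. Of the 6 higher in BEAF, 5 fell and 1 rose on adding CP190 to CTCF, and 5 fell and 1 rose on adding it to SuHw. On adding BEAF to CTCF 3 of these 6 rose, FBtr0084270 (0.21, adjusted p = 0.029) and FBtr0080987 (0.61, adjusted p = 0.0012) among them, and the other 3 were not called.

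For the 14 that moved apart and were lower in BEAF, 6 fell and 1 rose when BEAF was added to CTCF. On adding CP190, 9 rose and none fell in each background. The leading transcripts of this form did not show the CP190 change there. FBtr0074827 changed by -0.04 (SE 0.14) on adding CP190 to CTCF and by -0.04 on adding it to SuHw, and FBtr0087441 by -0.05 and -0.15 (SE 0.057). FBtr0080239 did, with a rise from 5.14 and 5.16 in CTCF to 8.49 and 8.57 in CTCF+CP190, though its CTCF arrays lay below 5.44. It did not show the BEAF change, as it rose when BEAF was added to CTCF (0.36, adjusted p = 0.017). In the first set its BEAF arrays lay below control (-1.17). Of the 7 lower in BEAF with both below control, 2 rose and none fell on adding CP190, in each background. On adding BEAF to CTCF, 6 of them fell and 1 rose. In the 7 higher in BEAF that moved the same way, CP190 lay below control in 5 and above it in 2. Of these 7, 5 fell and 1 rose on adding CP190 to CTCF, and 1 fell and none rose on SuHw. FBtr0087442, among them, changed by 0.04 (SE 0.10) with CP190 added to CTCF and by -0.02 with it added to SuHw.

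Called transcripts of any size, those at 2-fold included, kept the sides of the first set only in part. Of the 342 transcripts lower in BEAF with only BEAF called against control, 135 (39.5%) fell when BEAF was added to CTCF. On adding CP190 to CTCF, 135 (39.5%) rose. Of all transcripts, 10% fell and 12.6% rose in these comparisons. Of the 142 lower in BEAF with only CP190 called, 20 (14.1%) fell on adding BEAF and 66 (46.5%) rose on adding CP190. With neither called, 30 of 65 (46.2%) rose on adding CP190, so this rise did not set the sides apart. Of the 272 higher in BEAF with only CP190 called, 111 (40.8%) fell when CP190 was added to CTCF, beside 11.8%. When it was added to SuHw 102 (37.5%) fell, beside 13.7%. On adding BEAF to CTCF 75 of the 272 (27.6%) rose, beside 11.9% of all transcripts. Of the 317 higher in BEAF with only BEAF called, 94 (29.7%) rose on adding BEAF to CTCF and 61 (19.2%) fell on adding CP190. The spread shared by all calls limits these comparisons with all transcripts as well.

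The arrays with BEAF and CP190 depleted together resembled neither knockdown throughout. Among second-set means, the double lay nearer to BEAF+CTCF than to CTCF+CP190 for 29 of the 48 transcripts lower in BEAF and for 7 of the 20 higher. It read 5.91 and 6.16 for FBtr0074827 and 8.998 and 9.11 for FBtr0087441, close to the BEAF+CTCF arrays, and 8.91 and 8.87 for FBtr0084270, close to the CTCF+CP190 arrays. These counts have no test, and CTCF was not depleted in the double.

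The size of the difference between BEAF and CP190 was compared between the 2 contrasts. The contrast without CTCF knockdown lies wholly in the first set and that with it in the second, so CTCF knockdown and array set cannot be told apart in any difference between them. The difference between the contrasts was called for 299 transcripts, 1.8% of all, and for 23 of the 68. In the second set the difference kept its sign and was smaller for 13 of the 23, was larger for 9 and changed sign for 1, which was not called there. FBtr0085305 had a large change in signal, though 3 of its 4 groups lay below 5.44. It was near the low end in BEAF (3.83 and 4.02) and CP190 (4.41 and 4.40) but stood at 6.05 and 6.54 in CTCF+CP190 against 3.77 and 3.72 in BEAF+CTCF, a change of 2.07 (SE 0.17, adjusted p = 0.00012).

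FBtr0081104 also changed, with a difference between the contrasts of 2.04 (SE 0.099, adjusted p = 6.5e-07). It read 7.46 and 7.63 in BEAF and 7.86 and 7.76 in CP190, and 6.87 and 6.81 in BEAF+CTCF and 9.13 and 9.17 in CTCF+CP190. In the other direction stood FBtr0299514, not called between BEAF (6.08 on each array) and CP190 (6.05 and 5.56) but 4.53-fold higher in BEAF+CTCF (7.68 and 7.65) than in CTCF+CP190 (5.51 and 5.46). Without CP190 replicate 1 it was called in the first contrast as well, at 0.52 (adjusted p = 0.045). FBtr0087428 changed direction, from 7.60 and 8.04 in BEAF below 8.51 and 8.29 in CP190 to 9.73 and 9.75 in BEAF+CTCF above 8.57 and 8.55 in CTCF+CP190. Its first difference, -0.58 (adjusted p = 0.0041), lost its call in a fit of the 4 arrays alone (adjusted p = 0.1).

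FBtr0081748 was the reverse case, a difference called in the first set and not in the second. BEAF arrays read 9.38 and 9.45 and CP190 arrays 8.07 and 8.12, a 2.5-fold difference (SE 0.086, adjusted p = 1.3e-06), with control a little lower than BEAF and above CP190. In BEAF+CTCF it read 5.87 and 5.90 and in CTCF+CP190 5.71 and 5.67 (0.19, SE 0.086, adjusted p = 0.2), with CTCF arrays at 5.74 and 5.71. All 3 groups with CTCF knockdown were thus near 1 low level, and the change between the contrasts was 1.13 (SE 0.12, adjusted p = 0.00044). Adding CP190 to SuHw, in which CTCF was not depleted, lowered it from 9.46 and 9.25 to 7.07 and 7.33.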

How the data were processed

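Labelled cDNA from 18 samples was hybridised to NimbleGen arrays with 1 colour (Cy3). The authors deposited 1 table of log2 signals per transcript. The submitters' processing notes name RMA and Partek, without versions. RMA generally equalises arrays and summarises probes, which can hide a shift shared by all transcripts. The table has no detection call, and 2 arrays per group limit the precision. For each transcript, limma 3.58.1 (R 4.3.3) estimated 9 group means from the 18 arrays (9 residual and 3.68 prior degrees of freedom), with no filter, two-sided, Benjamini-Hochberg over 16637 transcripts, threshold 0.05. A 2-fold difference is 1 on the log2 scale. The fit was tested on simulated data. Symbols came from a RefSeq gene table (17872 genes, Release 6) through synonyms: 16 identifiers matched 1 symbol, 28 several and 16593 none. All 16 are described. Others appear by identifier, up to 2 higher and 2 lower per comparison, by size. Of lists of insulator, chromatin, GATOR and transporter genes, 0 of 13, 4 of 12, 2 of 9 and 2 of 2 genes were matched. The comparison, the lists and the tests were chosen with earlier results of these data known. No sequence was used. Alternatives were the arrays fitted, normalization, a signal filter, the variance model, array weights, a replicate block and leaving out arrays.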

Additional observations from a re-analysis of the deposited data

Results flagged for a closer look

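The difference between BEAF and CP190 knockdown was not the same size in the first set, without CTCF knockdown, as in the second, with it, by a test of that difference (limma with Benjamini-Hochberg), for 299 transcripts. CTCF knockdown and array set cannot be told apart in this test. Among transcripts described above, the contrast without CTCF knockdown minus that with it was 0.54 for FBtr0084270, 0.87 for FBtr0078763, 0.83 for FBtr0085680, 0.76 for FBtr0080239 and 1.13 for FBtr0081748 on the log2 scale. It was 2.07 for FBtr0085305 and 2.04 for FBtr0081104. It was -1.90 for FBtr0299514, -1.77 for FBtr0087428 and -1.05 for FBtr0080809, which read 6.86 on each BEAF array, 5.78 and 5.71 in CP190, 7.60 and 7.36 in BEAF+CTCF and 5.41 and 5.22 in CTCF+CP190. FBtr0084270, FBtr0085680 and FBtr0081748 had the larger difference without CTCF knockdown, and FBtr0078763, FBtr0080239 and FBtr0080809 with it. Groups of 2 arrays were not tested for outlying arrays.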

How the results depend on the processing

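The 68 transcripts were all called in the same direction without any 1 of the 4 arrays and with quantile normalization, and between 61 and 66 of them stayed at 2-fold. Their number ran from 65 to 92 without 1 array, and was 19 above the median signal, where fewer transcripts enter, and 368 at 1.5-fold. The 48 with arrays apart by 2-fold became 12 above the median signal, 184 with a gap of 1.5-fold and 56 to 74 without 1 array, 74 without BEAF replicate 2. The total of 1800 was 811 without BEAF replicate 1, 1012 without CP190 replicate 1 and up to 1668 otherwise. Calls lower in BEAF outnumbered higher ones without BEAF replicate 2 (906 and 762), without CP190 replicate 2 (698 and 658), above the median signal (598 and 468), with array weights (589 and 564) and at an adjusted p under 0.01 (435 and 356). The total was 572 with only the 4 arrays, 1066 above the median signal, 1153 with array weights and 791 at an adjusted p under 0.01. The 2038 calls with CTCF depleted were 1353 above the median signal and 1070 to 1454 without 1 array. The 299 were 122 with only the groups compared and 128 to 312 without 1 array.

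Above the median signal, BEAF minus control had 4310 calls, CP190 minus control 3660, BEAF added to CTCF 2323 and CP190 added to SuHw 2994. With array weights BEAF added to CTCF had 6032 and CP190 added to SuHw 2933, the latter 1831 with only its groups. Without 1 array the ranges were 4316 to 6121 for BEAF minus control, 3951 to 4577 for CP190 minus control, 2016 to 2099 for BEAF added to CTCF, 2325 to 3124 for CP190 added to CTCF and 3130 to 5095 for CP190 added to SuHw. The share of calls in the same direction with CTCF depleted ran from 33.2% to 63.4% at any size and from 82.4% to 90.8% at 2-fold. Without 1 array, values that were not called turned sign within -0.069 to 0.0196 for Fatp1, -0.078 to 0.051 for HDAC3, -0.015 to 0.077 for alpha-Spec and -0.014 to 0.093 for sle in BEAF minus CP190. With CTCF depleted the ranges were -0.055 to 0.056 for CG16974 (-0.0012 with median centring), -0.0515 to 0.0415 for NaPi-III, -0.011 to 0.029 for Uba1 and -0.106 to 0.0296 for Wdr24. Calls between BEAF and CP190 of NaPi-III, FBtr0081104, FBtr0085305 and FBtr0087428 were lost under some settings, and that of fend under none run. The cause was not tested.

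The labels give BEAF and CP190 arrays the same replicate numbers without saying that a number marks a shared batch. Deviations of same-numbered arrays correlated at 0.0505 (BEAF and CP190) and 0.304 (BEAF+CTCF and CTCF+CP190). With a replicate block 1822 transcripts were called and 68 at 2-fold, and within each set 1889 and 68.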
